A study of Mus musculus with 12 samples.

Results

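Transcripts of 57 respiratory chain genes were examined in RNA sequencing libraries of mouse small intestine, out of 55421 genes in the count table. The genes were taken by symbol, 44 from the nuclear genome and 13 from the mitochondrial genome, and all 57 were found and passed the filter on low counts. There were 12 libraries, 4 in each of 3 groups. The first group was wild type (WT). The second, called Apc here, had the genotype VilCreER Apcfl/fl: Cre driven by the villin promoter, active in gut epithelium and switched on by tamoxifen, with floxed alleles of Apc, a gene that restrains Wnt signalling. The third, called Apc Eif3h here, carried VilCreER and Apc fl/fl as well as Eif3h fl/fl, floxed alleles of a gene for a subunit of the initiation factor eIF3. The treatment text, common to all samples, gives 2 intraperitoneal injections of tamoxifen at 80 mg/kg, 24 hours apart. WT libraries are labelled day 7 and those of both other groups day 4, although the treatment text has all harvested at 7 days, so genotype and day cannot be told apart in comparisons with WT. The sexes were 3 males to 1 female in WT and in Apc, and 4 males in Apc Eif3h. Villin is not active outside the epithelium, so other cells keep their floxed alleles intact. Whether replicates were separate animals is not labelled, and the p-values then reflect only how these samples vary, which may be technical.

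The respiratory chain sits in the inner mitochondrial membrane. Complexes I (NADH dehydrogenase) and II (succinate dehydrogenase) pass electrons to ubiquinone, complex III passes them to cytochrome c, and complex IV (cytochrome c oxidase) passes them to oxygen. Complexes I, III and IV pump protons, and complex V, the ATP synthase, uses the gradient to make ATP. Most subunits are encoded in the nucleus and imported. The mitochondrial genome encodes core subunits of complexes I, III, IV and V and none of complex II, and its genes are transcribed as long precursors by a separate polymerase and translated on a separate ribosome. In the small intestine, absorptive enterocytes of the villus are rich in mitochondria.

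The mitochondrial genes lie close together, and neighbours share bases, so that some reads belong to 2 genes. Coordinates here and below are those of build GRCm38. The mt-Atp8 gene, a small subunit of complex V, spans chrM:7766-7969 on the plus strand, and its last 43 bases are also the first of mt-Atp6 (in capitals). The end of mt-Nd4l, a small subunit of complex I, at chrM:10114-10173 on the plus strand, shares 7 bases with the start of mt-Nd4 (in capitals). These sequences are shown because mt-Atp8 and mt-Nd4l were among the 6 of 13 mt-encoded members at or below 203 CPM per kb in WT (a level per kilobase explained below), and each shares bases with a neighbour.
mt-Atp8: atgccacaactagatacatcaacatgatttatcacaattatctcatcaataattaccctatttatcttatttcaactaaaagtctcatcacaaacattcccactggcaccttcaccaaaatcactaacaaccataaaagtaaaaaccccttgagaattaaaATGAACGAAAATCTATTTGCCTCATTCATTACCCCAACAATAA
mt-Nd4l end: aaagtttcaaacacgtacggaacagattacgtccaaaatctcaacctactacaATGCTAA

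Copies of mitochondrial DNA in nuclear chromosomes bear on the counts of at least 7 members, and nearly wholly so for 5 of them. In the transcript sequences of the GENCODE M21 annotation, 100% of the 36-base words of mt-Co2 were also found in another gene, as were 99.9% of those of mt-Co3, 99.5% of mt-Atp6, 98.9% of mt-Nd4l and 98.1% of mt-Nd3. The word length equals the number of sequencing cycles per read. Reads came in pairs and the search took no account of the mate, so these shares may overstate how many pairs are ambiguous. The other genes were pseudogenes in a row on chromosome 1. Gm28661 matched mt-Co2 over 681 bases with 100% identity, Gm28437 matched mt-Co3 over 783 bases with 100% identity, and Gm28438 differed from mt-Nd3 by 1 of 345 bases. Copies also covered mt-Nd4, whose first 876 of 1378 bases matched Gm28439 with 0 mismatches, and mt-Co1, matched by Gm13340 over 1545 bases with 37 mismatches. The other 8 mt-encoded members shared fewer than 90% of their words, a threshold chosen after the shares were seen, from 0% for mt-Nd1 to 62.6% for mt-Nd4. Only annotated transcripts were searched. The mt-Atp8 gene (4.73% shared) lies between mt-Co2 and mt-Atp6. Their copies are Gm28661 (chr1:24614885-24615565) and Gm10925 (chr1:24613974-24614651). A copy of mt-Atp8 between these, outside annotated genes, would be missed, so its share may be too low. Levels per kilobase of exon (CPM per kb, CPM being counts per 1e6 counts of the library after TMM scaling) differed between the 2 sets. In WT mt-Co2, mt-Co3 and mt-Atp6 stood at 203, 202 and 190.2 CPM per kb, and mt-Co1, the neighbour of mt-Co2 with 59.7% of words shared, at 16145. How the authors' counting treated reads that map to several places is not given in the sources used here, so the levels of these 5 members are uncertain, and those of mt-Nd4 and mt-Co1 in part. The level of mt-Atp8 may be uncertain too. The copies were themselves counted: Gm28437 had mean levels of 418 (WT), 266 (Apc) and 299.8 CPM (Apc Eif3h).

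**Figure D1:**
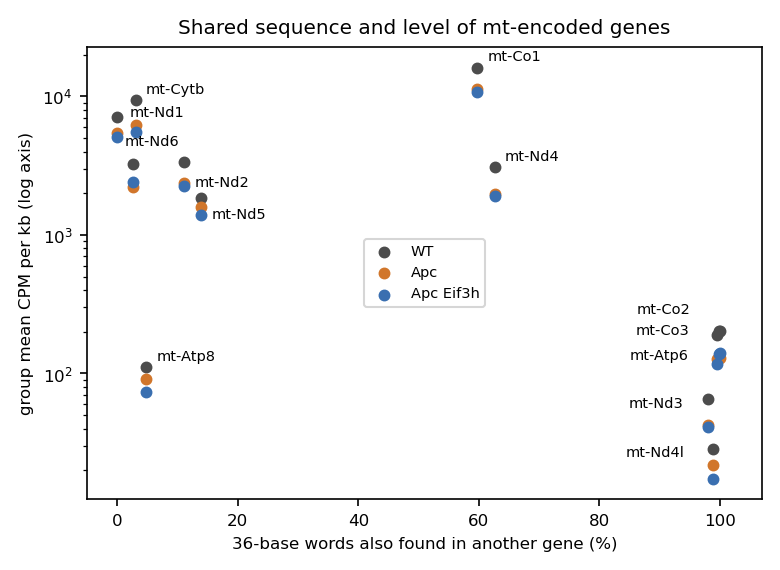
Share of each mt-encoded gene's 36-base words found in another annotated gene (x axis, percent) against its group mean level (y axis, CPM per kb, log axis), 1 point per gene and group. The 5 genes with 98.1% to 100% of words shared stood at or below 203 CPM per kb, and mt-Atp8 is the only other gene below 1000.

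Nuclear members are reached by regulators such as NRF1, GABP (an ETS factor) and YY1, whose binding motifs recur in respiratory chain promoters. In the RefSeq promoter sequences of GRCm38.p6, from 250 bases before to 50 bases after each start, 33 of the 44 nuclear members had an entry. The NRF1 motif (GCGCA, any base, GCGC) was in 7 of these 33 (21.2%), against 5.19% of the 27025 genes with an entry. The ETS motif CCGGAAG was in 6 (18.2% against 9.93%) and the YY1 motif AANATGGC in 9 (27.3% against 6.96%). Both strands were searched, and 19 of 33 (57.6%) held at least 1 of the 3, against 19.4% of all genes. A match is a description of the letters and not of binding. The promoters of 3 members are shown because the 250 bases before their start hold the NRF1 motif more than once or together with the ETS motif. Uqcrc1 also holds the NRF1 motif more than once, but only after its start, and is not shown. They were chosen after values were seen, and their genes were lower in Apc than in WT. Each is given as the 250 bases before the start, read on the minus strand with motifs in capitals (the ETS motif in its reverse form CTTCCGG): Sdha at chr13:74350241-74350490, Sdhd at chr9:50603850-50604099 and Cox6a1 at chr5:115348959-115349208.
Sdha: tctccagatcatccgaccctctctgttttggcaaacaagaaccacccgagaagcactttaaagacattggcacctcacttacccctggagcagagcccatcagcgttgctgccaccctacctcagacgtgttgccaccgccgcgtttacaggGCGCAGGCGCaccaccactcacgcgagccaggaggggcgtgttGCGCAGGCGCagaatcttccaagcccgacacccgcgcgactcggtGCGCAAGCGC
Sdhd: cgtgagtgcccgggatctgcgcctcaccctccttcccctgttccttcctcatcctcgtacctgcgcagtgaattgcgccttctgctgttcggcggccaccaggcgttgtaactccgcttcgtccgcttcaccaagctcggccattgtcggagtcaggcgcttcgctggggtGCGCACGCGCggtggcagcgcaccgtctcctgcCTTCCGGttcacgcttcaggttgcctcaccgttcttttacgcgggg
Cox6a1: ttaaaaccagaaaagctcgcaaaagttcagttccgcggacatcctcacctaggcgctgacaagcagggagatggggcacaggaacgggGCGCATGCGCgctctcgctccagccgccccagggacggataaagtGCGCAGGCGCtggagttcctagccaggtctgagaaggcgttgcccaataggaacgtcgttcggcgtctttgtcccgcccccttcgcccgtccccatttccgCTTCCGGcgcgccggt

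Library totals lay between 10483112 and 21298301 counts. Eif3h transcripts ranged from 126 to 142 CPM over the WT libraries, from 158 to 175 over Apc and from 25.9 to 54.6 over Apc Eif3h, and they fell by 2.13 on the log2 scale from Apc to Apc Eif3h (edgeR quasi-likelihood test, adjusted p = 0.000405). Apc transcripts, the other targeted gene, stood at 87.4, 98.3, 97.6 and 93.3 CPM in WT, at 106.4, 111, 116 and 123 for Apc, and at 105, 100.2, 92.8 and 121 for Apc Eif3h. They were higher in the libraries labelled Apc than in WT (0.28, adjusted p = 0.0177, lost without WT replicate 1 or Apc replicate 4, with adjusted p up to 0.0577). Counts over a whole gene cannot show the loss of some of its exons, so this checks no label. Markers of the labelled tissue were present: 12 enterocyte genes summed to 42566 to 57118 CPM over WT libraries, against 18105 to 29476 for Apc and 21601 to 36966 for Apc Eif3h. Of these 12, 10 were lower in Apc and 8 in Apc Eif3h than in WT, and 0 were called between Apc Eif3h and Apc. Over all genes tested 24.1% were lower in Apc and 28.1% in Apc Eif3h than in WT, and 7.05% were called between Apc Eif3h and Apc. For 10 crypt and stem cell genes the sums were 745 to 1263 CPM (WT), 3054 to 3604 (Apc) and 2267 to 2782 (Apc Eif3h). T cell genes were lower in Apc too (7 of 7), from 142 to 453 CPM in WT to 68.3 to 114 in Apc. So were the sums of neuron and glia genes (19.5 to 24.3 CPM in WT, 12.2 to 14.2 in Apc) and of smooth muscle genes (1130 to 1830 and 964 to 1128). The sums of macrophage, fibroblast, endothelial, Paneth and goblet, B cell and erythrocyte genes overlapped between WT and Apc. None of 68 markers of 11 cell types was at 0 in any library. One library per group stood apart in B cell genes: WT replicate 1 (2754 CPM against 811 to 917 in the others), Apc replicate 3 (940.2 against 354 to 493) and Apc Eif3h replicate 2 (1387 against 308 to 447). Results without each are given below.

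All 57 respiratory chain genes had lower mean levels in Apc than in WT. Of the 44 nuclear members 29 fell and 0 rose at an adjusted p below 0.05 (edgeR quasi-likelihood test, Benjamini-Hochberg over 17394 genes), and 7 of the 13 mt-encoded members fell and 0 rose. Over all genes tested 51.8% were called, 24.1% lower and 27.7% higher. The median log2 fold change was -0.34 for the nuclear members (range -0.76 to -0.07) and -0.55 for the mt-encoded members (-0.66 to -0.21), against -0.01 over all genes tested. All 4 Apc libraries lay below all 4 WT libraries for 29 nuclear and 11 mt-encoded members, as they did for 22% of all genes tested. Without WT replicate 1, 26 nuclear and 6 mt-encoded members were lower, and without Apc replicate 3, 22 and 6. Over all genes 3903 of 17737 and 3713 of 17617 were lower in these fits. In bulk tissue, fewer cells of a type and less RNA per cell cannot be told apart. The enterocyte, crypt, T cell, neuron and glia, and smooth muscle sums above moved between the same groups. Their part in the result was not tested.

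These falls are relative to the TMM scaling, which sets the median gene near 0. With library totals as the only scaling, the median of all genes moved to 0.22, all-gene calls went from 4820 higher and 4192 lower to 6817 higher and 2393 lower, and 11 of 44 nuclear and 6 of 13 mt-encoded members were lower, with 0 higher. The 11 nuclear members still lower were Ndufa1, Ndufb3, Ndufb9, Ndufb10, Sdhb, Sdhc, Sdhd, Uqcrfs1, Cox4i1, Cox6a1 and Cox6c, so the other calls below rest on the scaling, and of the mt-encoded calls mt-Nd2 was lost. The list medians were then -0.10 and -0.31. Their distance from the median of all genes was -0.33 for nuclear members under both scalings, and -0.54 and -0.53 for the mt-encoded. As a share of all counts, which needs no scaling factor, the nuclear members took 1.49% to 1.65% in WT and 1.41% to 1.52% in Apc, ranges that overlap.

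**Figure D2:**
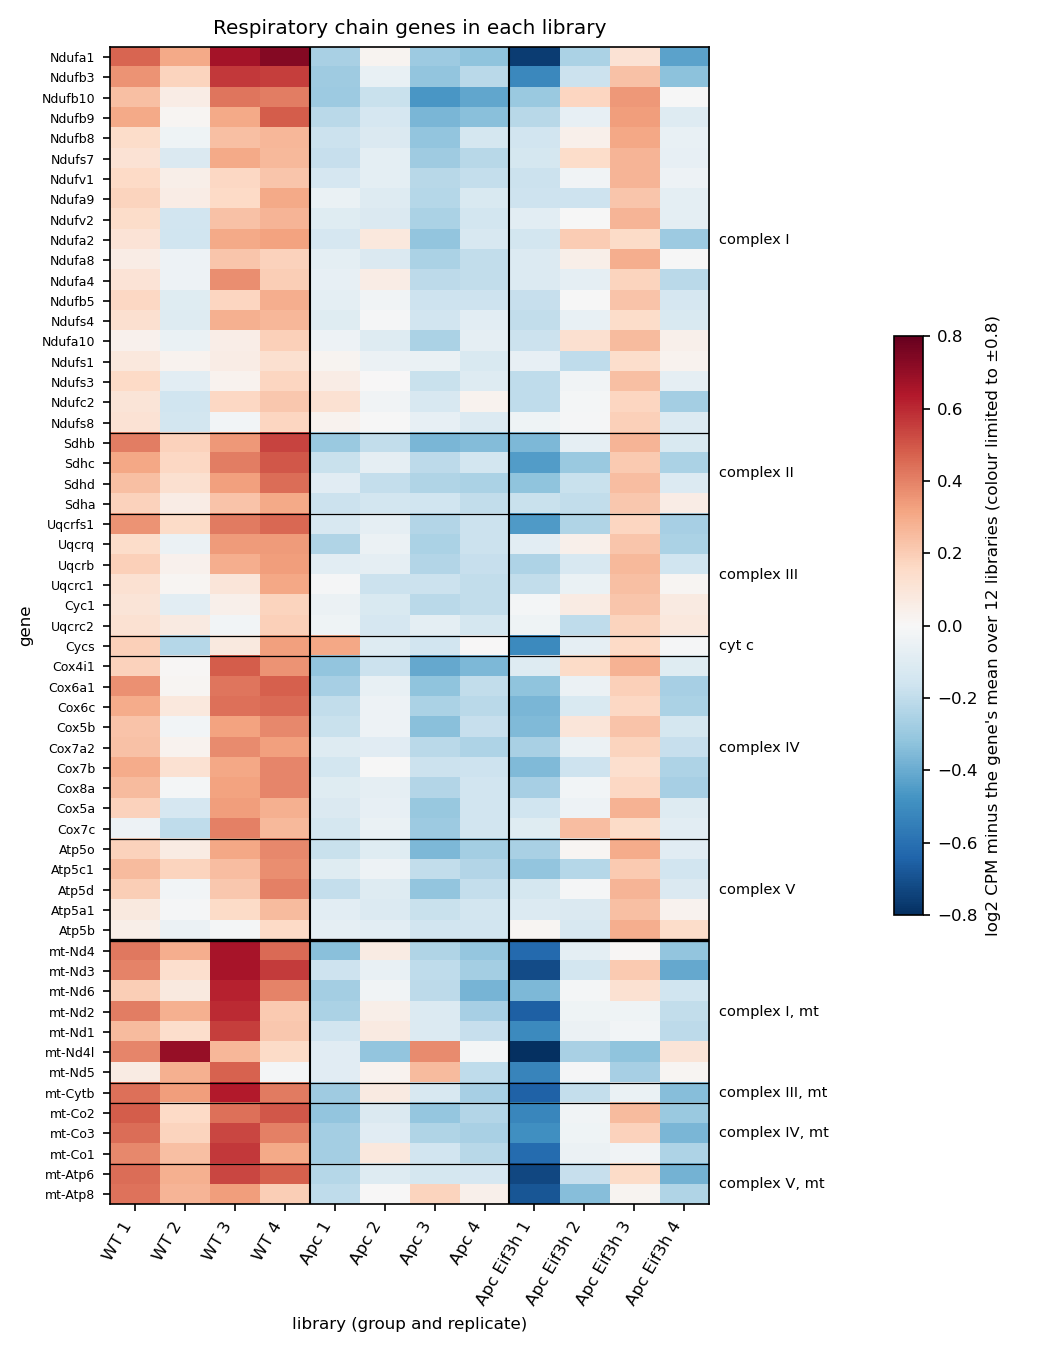
Level of each of the 57 genes (rows, by complex, nuclear above and mt-encoded below the thick line) in each of the 12 libraries (columns), as log2 CPM minus the gene's mean over libraries (colour, limited to 0.8 either way). WT replicates 1, 3 and 4 are mostly above the mean, Apc libraries mostly below it, and Apc Eif3h replicate 3 is above it for most nuclear genes while replicate 1 is the lowest of its group for all 13 mt-encoded genes.

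Complex I, the entry point for electrons from NADH, had 10 of its 19 nuclear members lower in Apc than in WT. The largest difference among all nuclear members was in Ndufa1 (ENSMUSG00000016427, X:37187588-37191163, minus strand), a small accessory subunit. Ndufa1 stood at 128, 114, 148 and 155 CPM in WT replicates 1 to 4, at 77.6, 94.4, 75.8 and 74.4 in Apc, and at 54.9, 78.0, 101 and 69.1 in Apc Eif3h. Every WT library was above every library of the other groups. The log2 fold change in Apc was -0.76 (SE 0.16, adjusted p = 0.00203). Ndufb10, another accessory subunit, stood at 139.9, 123, 159 and 157 CPM in WT, at 97.0, 105, 85.6 and 88.7 for Apc, and at 96.3, 133, 151 and 118 for Apc Eif3h. WT and Apc did not overlap, and Apc Eif3h spanned both. The fold change of Ndufb10 in Apc was -0.62 (SE 0.13, adjusted p = 0.00183). The accessory subunits Ndufb3 (-0.64) and Ndufb9 (-0.55) also fell. Of the core subunits, which make up the catalytic arm, Ndufv1 fell by 0.30, Ndufs7 by 0.34 and Ndufv2 by 0.29 on the log2 scale, while Ndufs1 (-0.12), Ndufs3 (-0.12) and Ndufs8 (-0.07) were not called. The call of Ndufs7 (adjusted p = 0.0207) was lost in 4 of 8 fits that left out 1 library (adjusted p up to 0.0614). That of Ndufv2 (adjusted p = 0.0379) was lost in 7 of 8 fits that left out 1 library, all but that without WT replicate 2, with adjusted p up to 0.105. Ndufa4, listed here with complex I and now often counted with complex IV, was called only without WT replicate 2 or Apc replicate 2 and by DESeq2.

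All 4 members of complex II, the only complex with no mt-encoded subunit and also an enzyme of the tricarboxylic acid (TCA) cycle, fell in Apc. Sdhb (ENSMUSG00000009863, 4:140961203-140979193, plus strand), the iron-sulfur subunit, had the smallest p of the nuclear members. Sdhb stood at 414, 355, 396 and 454 CPM in WT, at 254, 272, 242 and 245 for Apc, and at 243, 297, 377 and 287 for Apc Eif3h. The lowest WT library lay above the highest Apc library by more than the range within Apc. Its log2 fold change was -0.68 (SE 0.12, adjusted p = 0.00076), and it was lower in 4 of 4 Apc libraries than in any WT library. The membrane anchors Sdhc (-0.50) and Sdhd (-0.48) and the flavoprotein Sdha (-0.37) followed.

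In complex III 4 of 6 nuclear members fell. Uqcrfs1, the Rieske iron-sulfur protein, had the largest difference. It stood at 422, 366, 439 and 452 CPM in WT, at 301, 312, 279.5 and 292 for Apc, and at 241, 279, 370.1 and 274 for Apc Eif3h, with WT and Apc apart and 1 Apc Eif3h library (replicate 3) reaching into the WT range. The log2 fold change in Apc was -0.50 (SE 0.12, adjusted p = 0.00438). The core protein Uqcrc1 was at the threshold (-0.28, adjusted p = 0.0495), and lost its call in 6 of 8 fits that left out 1 library, all but those without WT replicate 2 or Apc replicate 1, with adjusted p up to 0.138. Cyc1, cytochrome c1, was not called (-0.21, adjusted p = 0.0669, and 0.0112 by DESeq2). Cycs, the mobile electron carrier cytochrome c, stood at 71.6, 53.4, 66.1 and 78.7 CPM in WT, at 77.6, 58.3, 56.4 and 62.7 for Apc, and at 43.98, 59.6, 69.9 and 62.3 for Apc Eif3h. The 3 groups overlapped, and the log2 fold change of Cycs in Apc was -0.08 (SE 0.15, adjusted p = 0.67). Of its 36-base words 28.4% occur in other genes, mainly processed pseudogenes, so its level is less certain.

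Complex IV, the oxygen-reducing enzyme, had 8 of its 9 nuclear members lower in Apc, all but Cox7c (-0.28, adjusted p = 0.0815). Cox4i1, the ubiquitous form of subunit 4, stood at 739, 652, 909.7 and 833 CPM in WT, at 521, 575, 488 and 506 for Apc, and at 604, 721, 787 and 606 for Apc Eif3h. All Apc libraries were below all libraries of the other groups. Its log2 fold change in Apc was -0.58 (SE 0.13, adjusted p = 0.00238). Cox6a1 (-0.54) and Cox6c (-0.50) followed, and Cox8a fell by 0.38 on the log2 scale, a call lost without WT replicate 4 or Apc replicate 3 (adjusted p up to 0.0527). In complex V 3 of 5 nuclear members fell. Atp5o, a stalk subunit, stood at 267, 246, 292 and 307 CPM in WT, at 207, 219.8, 184 and 195 for Apc, and at 196, 237, 289 and 221 for Apc Eif3h. WT and Apc were apart, and Apc Eif3h overlapped both. The log2 fold change in Apc was -0.47 (SE 0.12, adjusted p = 0.00553). Of its exonic bases 47.9% are shared with other annotated genes, among them another entry also named Atp5o, so its counts are uncertain. The catalytic subunits Atp5a1 (-0.25, adjusted p = 0.139) and Atp5b (-0.15, adjusted p = 0.402), which are the most counted nuclear members, were not called by edgeR although their 4 Apc libraries lay below all WT libraries. DESeq2 called Atp5a1 lower (adjusted p = 0.00916) but not Atp5b.

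Of the 29 nuclear calls, 22 held in each of the 8 fits that left out 1 library of either group. The exceptions were Ndufa8, Ndufa9, Ndufs7, Ndufv2, Uqcrc1, Cox5a and Cox8a. The count of nuclear members lower in Apc lay between 22 and 35 in these fits.

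The mt-encoded members were lower in Apc for subunits of complexes I, IV and V. In complex I 4 of 7 fell. The largest difference was in mt-Nd4, at 4164, 3789.7, 4898 and 4249.8 CPM in WT, 2459, 3254, 2623 and 2507 for Apc and 2015, 2939, 3128 and 2493 for Apc Eif3h. WT stood above all other libraries. Its log2 fold change in Apc was -0.66 (SE 0.20, adjusted p = 0.0148), and 62.6% of its words are shared with a nuclear copy, so part of its reads cannot be told from the copy's. The gene mt-Nd6, the only protein gene transcribed from the other strand, fell as well (-0.55), and mt-Nd5 (-0.21, adjusted p = 0.399) did not pass. The strand setting of the counting is not given, so reads of the opposite strand may be among the counts of mt-Nd6. The call of mt-Nd2 (-0.52, adjusted p = 0.0337) was lost in 5 of 8 fits that left out 1 library (WT replicates 1 and 3 and Apc replicates 1, 3 and 4), with adjusted p up to 0.0851.

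The smallest p-values among mt-encoded members belonged to 3 of the genes with nearly all words shared. For mt-Co3, a core subunit of complex IV, the libraries stood at 164, 136, 174 and 159 CPM in WT, 99.5, 113, 102 and 100.4 for Apc and 85.5, 117, 136 and 93.1 for Apc Eif3h. WT and Apc did not overlap, and the log2 fold change was -0.61 (SE 0.13, adjusted p = 0.00225). For mt-Co2, which carries a copper centre of the same complex, they stood at 147, 117, 143 and 148 CPM in WT, 84.4, 97.0, 85.0 and 89.6 for Apc and 73.3, 103, 125 and 85.5 for Apc Eif3h. Again WT and Apc were apart (-0.64, SE 0.14, adjusted p = 0.00248). For mt-Atp6, the subunit of the proton channel, they stood at 130.2, 116, 138 and 133 CPM in WT, 81.4, 88.8, 86.7 and 87.1 for Apc and 57.6, 84.1, 106.4 and 73.4 for Apc Eif3h. The 4 WT libraries stood above all others, and the log2 fold change was -0.59 (SE 0.14, adjusted p = 0.00441). The nuclear copies moved alike, Gm28437 by -0.65 (adjusted p = 0.00456), and reads of a gene and its copy cannot be told apart here.

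The members with the highest counts had lower means in Apc but were not called by edgeR with the filter on low counts. The mt-Co1 gene, the catalytic core of complex IV, stood at 24988, 22712, 28441 and 23631 CPM in WT, at 15915, 20303, 17268 and 16456 for Apc, and at 12544, 18571, 18807 and 16177 for Apc Eif3h. No WT library overlapped another group. The log2 fold change in Apc was -0.51 (SE 0.43, adjusted p = 0.334). The mt-Cytb gene, cytochrome b of complex III, stood at 10624, 9856, 12135 and 10433 CPM in WT, at 6425, 8219.9, 7154 and 6507 for Apc, and at 4986, 6837, 7525 and 6175 for Apc Eif3h. Groups were apart in the same way (-0.60, SE 0.27, adjusted p = 0.0816). These 2 and mt-Nd1 (-0.39, adjusted p = 0.172) had the widest standard errors of the members in the edgeR fit. Without the filter on low counts the same edgeR test called all 3 lower, with adjusted p of 0.00606 for mt-Co1, 0.00158 for mt-Cytb and 0.023 for mt-Nd1. In that fit 3790 of 34982 genes were lower. DESeq2 also called all 3 lower, with adjusted p of 0.000284 for mt-Co1, 8.37e-06 for mt-Cytb and 0.00359 for mt-Nd1, and 11 of 13 mt-encoded members in all, against 25.1% of all genes lower by that tool. The 2 mitochondrial ribosomal RNAs were also lower in Apc, mt-Rnr2 by 0.90 on the log2 scale (adjusted p = 0.000612) and mt-Rnr1 by 0.47 (adjusted p = 0.0405), the latter no longer passing without WT replicate 1 or 3 or Apc replicate 1 or 3 (adjusted p up to 0.117).

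**Figure D3:**
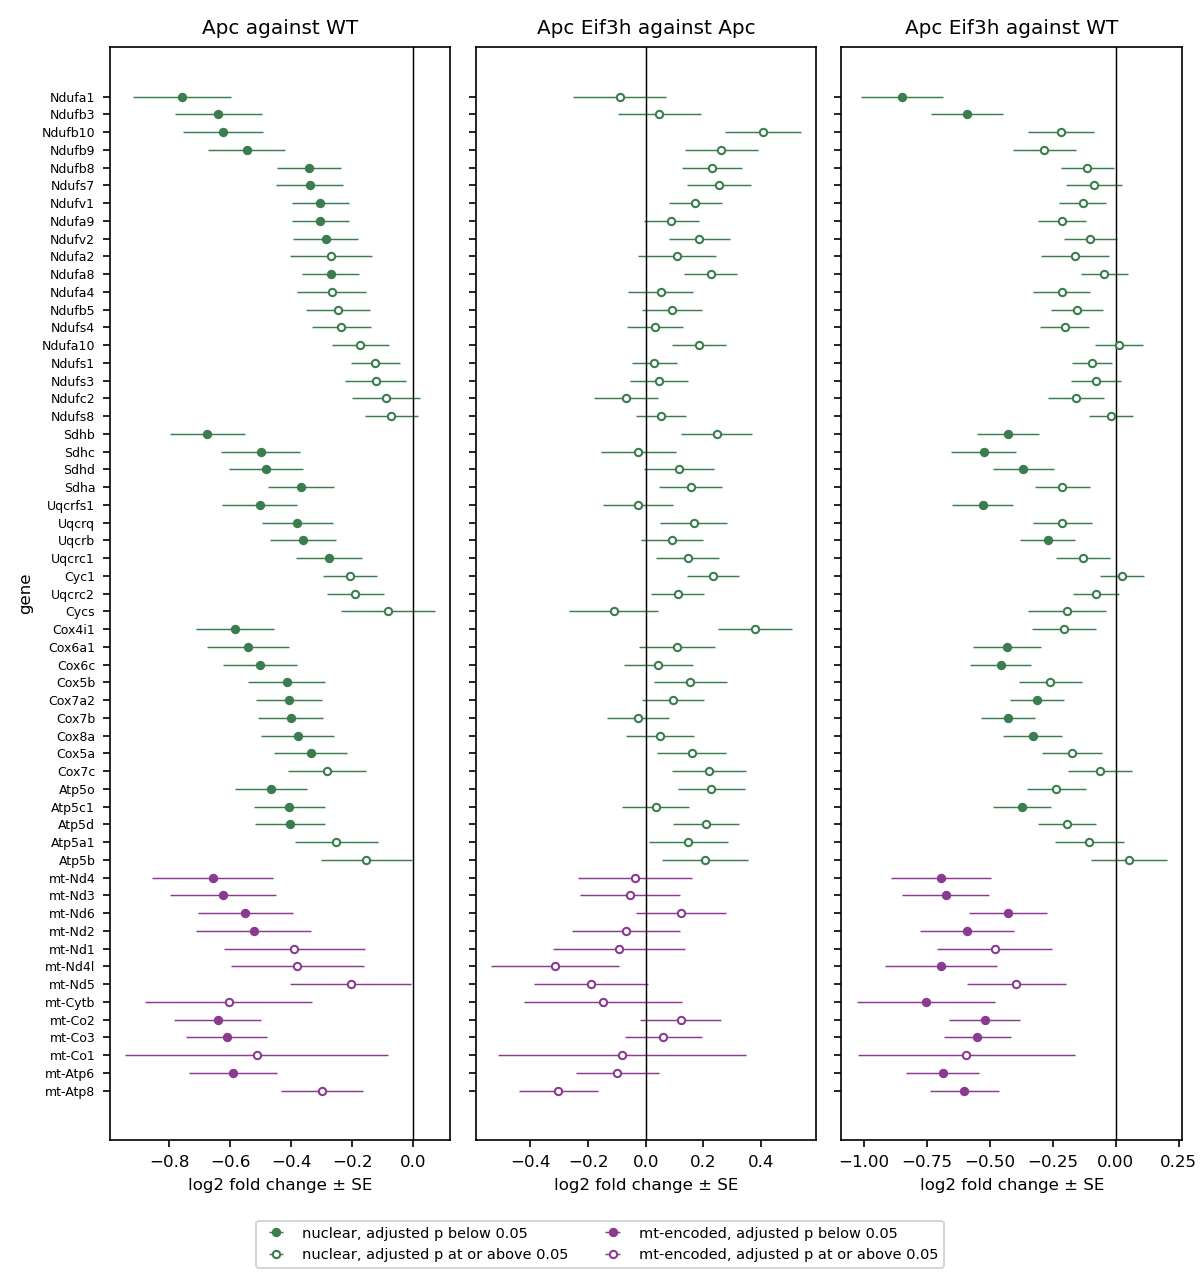
Log2 fold change with its SE for each of the 57 members (rows, in complex order) in the 3 comparisons, nuclear members in green and mt-encoded in purple, filled where the adjusted p is below 0.05. All 57 points are below 0 in Apc against WT, 0 are filled in Apc Eif3h against Apc, and the mt-encoded points stay between -0.39 and -0.75 in Apc Eif3h against WT.

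Between Apc Eif3h and Apc, the comparison matched for day by the labels, 0 of 57 members were called, against 7.05% of all genes tested (4.27% higher and 2.78% lower). The differences of the nuclear members leaned up and those of the mt-encoded members leaned down: 38 of 44 nuclear members had a higher mean in Apc Eif3h (median log2 fold change 0.11, range -0.11 to 0.41), and 10 of 13 mt-encoded members a lower one (median -0.08, range -0.31 to 0.12). The median over all genes was 0.00 to 2 decimals. Leaving out 1 library moved the mt-encoded median to between -0.13 and 0.03, so its lean and sign rested on single libraries. The nuclear median then lay between 0.07 and 0.18. The 2 mitochondrial ribosomal RNAs had higher means in Apc Eif3h and were not called by edgeR: mt-Rnr1 by 0.40 (adjusted p = 0.192) and mt-Rnr2 by 0.43 (adjusted p = 0.122). Members vary together, so counts by sign are descriptions. At an unadjusted p below 0.05 there were 6 nuclear members and 1 mt-encoded member, a smaller share of either than the 23.5% of all genes tested. DESeq2 called 3 nuclear members higher, Ndufb10, Cox4i1 and Cyc1, and 0 mt-encoded members. With 6.45% of all genes higher by that tool, 3 of 44 is near the background.

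Ndufb10, with its values given above, had the smallest p, with a log2 fold change of 0.41 (SE 0.13, adjusted p = 0.0819). It was called without Apc Eif3h replicate 1 (adjusted p = 0.0344) and by DESeq2 (adjusted p = 0.0351). Cox4i1 was higher in 4 of 4 Apc Eif3h libraries than in any Apc library (0.38, SE 0.13, adjusted p = 0.0946, and 0.0272 by DESeq2). Cyc1 stood at 458, 435, 408 and 413 CPM in Apc and at 469, 497, 553 and 497 in Apc Eif3h, also without overlap (0.23, adjusted p = 0.136, and 0.0287 by DESeq2). Ndufv2 was the remaining member whose groups did not overlap, at 161 to 180.1 CPM in Apc and 182 to 232 in Apc Eif3h. Over all genes 7.89% had every Apc Eif3h library above every Apc library, and 3 of 44 nuclear members is near that share. Of the mt-encoded members mt-Atp8 had the smallest p. It stood at 15.9, 18.4, 20.8 and 18.9 CPM in Apc and at 11.4, 14.5, 18.6 and 15.5 in Apc Eif3h, which overlap (-0.30, SE 0.14, adjusted p = 0.201). The counts stayed at 0 of 44 and 0 of 13 without Apc Eif3h replicate 2 and without Apc replicate 3.

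Against WT, Apc Eif3h had 13 of 44 nuclear members lower and 0 higher, and 10 of 13 mt-encoded members lower and 0 higher, where 57.8% of all genes were called, 28.1% lower and 29.8% higher. The nuclear share of 29.5% was thus near the background in the fit of all 12 libraries. The median log2 fold change was -0.20 for nuclear and -0.59 for mt-encoded members, against -0.03 over all genes. All 13 nuclear and 7 of the 10 mt-encoded members called here were also called lower in Apc against WT, which shares the WT libraries, and the other 3 were mt-Nd4l, mt-Cytb and mt-Atp8. Without Apc Eif3h replicate 2 the counts were 11 and 10, and without WT replicate 1 also 11 and 10. The nuclear count rested on Apc Eif3h replicate 3, the library with the highest nuclear levels of its group. Without it 22 of 44 nuclear members were lower, against 4823 of 17691 over all genes. With library totals as the only scaling, 6 nuclear members were lower and 2 higher, and 8 mt-encoded members were lower. The nuclear median was then 0.00, against 0.17 over all genes, of which 3175 of 17394 were lower and 6605 higher.

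The nuclear members with the smallest p in this comparison were Ndufa1 (-0.85, SE 0.16, adjusted p = 0.000805), Uqcrfs1 (-0.53, SE 0.12, adjusted p = 0.00276) and Ndufb3. The last stood at 97.5, 85.8, 112 and 111 CPM in WT, at 62.2, 72.7, 61.0 and 65.2 for Apc, and at 53.1, 67.4, 89.2 and 60.3 for Apc Eif3h, whose replicate 3 reached the WT range (-0.59, SE 0.14, adjusted p = 0.00374). By complex, the nuclear members lower were 2 of 19 in complex I, 3 of 4 in complex II, 2 of 6 in complex III, 5 of 9 in complex IV and 1 of 5 in complex V. Among mt-encoded members mt-Atp6 led (-0.69, SE 0.14, adjusted p = 0.00143), followed by mt-Atp8 (-0.60, SE 0.14, adjusted p = 0.00244) and mt-Co3 (-0.55, SE 0.13, adjusted p = 0.00363). The WT libraries of mt-Atp8 stood at 24.8, 22.1, 23.2 and 21.1 CPM, above every Apc and Apc Eif3h library. The call of mt-Cytb (-0.75, adjusted p = 0.032) was lost without WT replicate 3, Apc Eif3h replicate 1 or replicate 4 (adjusted p up to 0.0752), that of mt-Nd4l (-0.69) without WT replicate 2 (0.058), and that of mt-Nd6 (-0.43) in 4 such fits, without WT replicate 3 or 4 or Apc Eif3h replicate 1 or 4 (up to 0.0905). With only the 2 groups compared in the edgeR fit, mt-Cytb (0.128), mt-Nd6 (0.0744) and mt-Nd2 (0.0587) lost their calls. With sex as a covariate mt-Nd6 lost its call (0.0506). DESeq2 also called mt-Nd1 (0.000296), mt-Nd5 (0.0186) and mt-Co1 (2.4e-05) lower.

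The 2 genomes were then set against each other within each library. In the order WT, Apc and Apc Eif3h, the share of counts of the 13 mt-encoded genes was 5.03% ± 0.383, 4.16% ± 0.341 and 3.82% ± 0.602 (SD, n = 4), and that of the 44 nuclear genes 1.57% ± 0.0697, 1.47% ± 0.0465 and 1.58% ± 0.130. The ratio of mt-encoded to nuclear counts, which no scaling factor touches, was 3.18, 3.30, 3.58 and 2.78 in WT, 2.55, 3.12, 3.001 and 2.70 for Apc, and 2.07, 2.80, 2.31 and 2.45 for Apc Eif3h. Neighbouring groups overlapped, and Apc Eif3h and WT overlapped only where replicate 2 of the former (2.80) met replicate 4 of the latter (2.78). This ratio is set mostly by mt-Co1, mt-Cytb and mt-Nd1. Weighting genes equally, the mean of log2 CPM centred per gene, nuclear minus mt-encoded, ranged over -0.26 to 0.00 (WT), -0.16 to 0.11 (Apc) and 0.06 to 0.39 (Apc Eif3h). All 4 Apc Eif3h libraries lay above all 4 WT libraries, and 1 Apc library (replicate 1) lay inside the Apc Eif3h range. Over the 8 mt-encoded members with fewer than 90% of words shared (mt-Atp8 among them), the ranges were -0.29 to 0.06, -0.18 to 0.12 and 0.05 to 0.35, so that WT replicate 4 met the lowest Apc Eif3h library. No test was run on these scores.

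**Figure D4:**
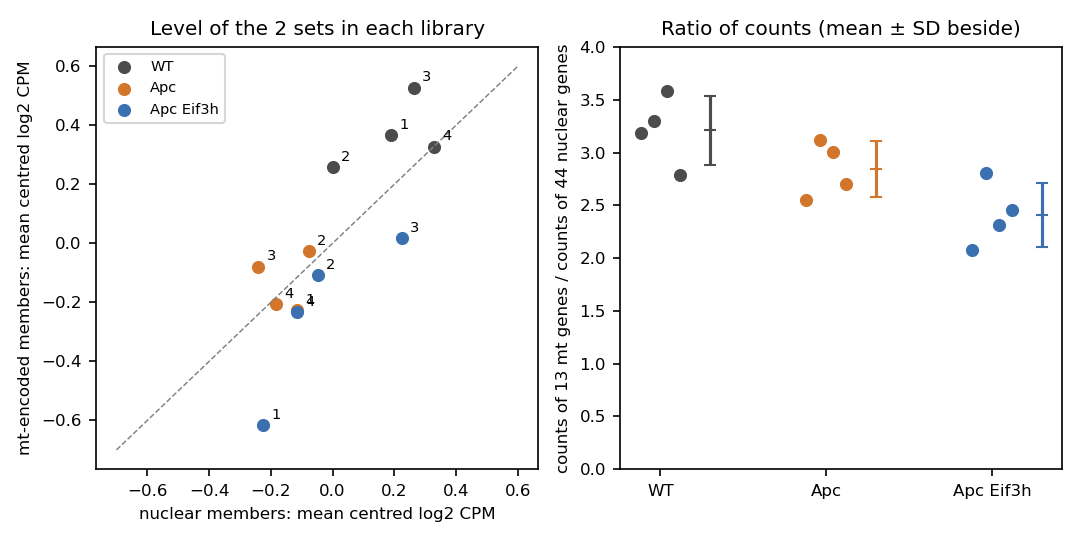
Left, mean centred log2 CPM of the 44 nuclear (x) and 13 mt-encoded (y) members in each library, numbered by replicate, with the line of equality dashed. Right, ratio of mt-encoded to nuclear counts per library with the mean and SD of 4 beside the points. On the left all 4 Apc Eif3h libraries lie below the line and WT libraries on or above it, and on the right the means are 3.21, 2.84 and 2.41.

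Levels between members were compared as CPM per kb of annotated exon, which understates genes whose annotation includes retained introns. In WT the nuclear members ran from Cox8a (861 CPM per kb), Cox6a1 (847), Atp5a1 (656) and Atp5b (582) down to Ndufs1 (25.5) and Cycs (19.8). Cox8a, Cox6a1, Atp5a1 and Atp5b were the first 4 nuclear members in that order in all 3 groups, and Ndufs1 and Cycs the last 2. Ndufa1 moved most among the leading genes, from rank 9 of 44 in WT (325) to rank 14 in Apc (192) and 15 in Apc Eif3h (181). The mt-encoded members led with mt-Co1 (16145, 11317 and 10696 in WT, Apc and Apc Eif3h), mt-Cytb (9407, 6186 and 5578) and mt-Nd1 (7079, 5405 and 5068), in the same order in all groups.

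Members varied together within groups. The median coefficient of variation over 4 libraries for nuclear members was 10.2% (WT), 5.97% (Apc) and 13.9% (Apc Eif3h), and for mt-encoded members 10.8%, 10.4% and 18.8%. WT replicate 2 was the lowest WT library for 43 of 44 nuclear members and 9 of 13 mt-encoded. Apc Eif3h replicate 1 was the lowest of its group for 34 of 44 and 13 of 13, and replicate 3 the highest for 42 of 44 and 11 of 13. Apc replicate 2 was the highest of its group for 29 and 10. The enterocyte sum was highest in the same 2 libraries of these groups, Apc Eif3h replicate 3 (36966 CPM) and Apc replicate 2 (29476). In WT it was highest in replicate 4 (57118), the highest WT library for 34 of 44 nuclear members but 1 of 13 mt-encoded. The lowest libraries differed. The sum was lowest in WT replicate 1 (42566), Apc replicate 1 (18105) and Apc Eif3h replicate 2 (21601). Nuclear members were most often lowest in WT replicate 2, Apc replicate 3 and Apc Eif3h replicate 1. Apc replicate 1 was the lowest of its group for 7 of 13 mt-encoded members. The part of cell makeup in this spread was not tested.

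Further genes of mitochondrial function split by role in Apc against WT. These lists were written with earlier results of the data known, so their counts are descriptions. Over all genes tested 27.7% were higher and 24.1% lower in that comparison. The 34 other subunits of the chain moved as the members did, with 21 lower and 0 higher (median -0.37, and 10 lower with library totals only). They included Atpif1, an inhibitor of the ATP synthase, from 276 to 158 CPM (-0.81, adjusted p = 0.000648), and the complex I subunits Ndufv3 (-0.72) and Ndufa6 (-0.50). Of the isoforms that other tissues use, 4 of 8 were tested and 2 fell, among them Cox7a1, the muscle form of subunit 7a, from 109 to 47.0 CPM (-1.22, adjusted p = 0.00288).

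The machinery that expresses, imports and folds mitochondrial proteins was higher in Apc. Of 28 genes for maintenance and expression of mitochondrial DNA 22 rose and 2 fell (median 0.48). Fastkd2, an RNA-binding protein of mitochondrial RNA granules, rose from 17.9 to 44.1 CPM (1.30, SE 0.14, adjusted p = 3.16e-05). Trmt10c, a subunit of mitochondrial RNase P, rose by 1.02 and Ssbp1, the single-strand DNA-binding protein, by 0.89. Polrmt, the mitochondrial RNA polymerase (0.26), and Tfam, which packages mitochondrial DNA (0.22), were also called, and are named outside the rule, after their values were seen. The 2 that fell were Polg2 (-0.69), an accessory subunit of the DNA polymerase, and Mterf2 (-0.74). Of 76 mitoribosomal protein genes tested 47 rose and 1, Mrpl27, fell (median 0.28). Mrpl19 rose by 0.93 (adjusted p = 5.67e-05), and the call of Mrpl27 (-0.30, adjusted p = 0.0452) was lost in 7 of 8 fits that left out 1 library (all but that without WT replicate 2). Of 17 import and chaperone genes 13 rose and 0 fell (median 0.58), led by the receptor Tomm20 (0.73), the channel Tomm40 (48.9 to 97.9 CPM) and the chaperonin Hspd1, from 159 to 363 CPM (1.19, SE 0.14, adjusted p = 3.94e-05).

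The remaining lists were mixed, and their split rested on the scaling. Among 45 assembly factors tested 12 rose and 5 fell (median 0.08), against 22 higher and 1 lower with library totals only. The complex I factors Ndufaf6 (0.91) and Ndufaf4 (0.68) rose, and the complex IV factors Cox15 (-0.50), Cox16 (-0.49) and Cox14 (-0.43) fell, of which Cox16 and Cox14 were not called with library totals (adjusted p = 0.0693 and 0.0921). Of 20 genes of the TCA cycle and pyruvate entry 10 fell and 3 rose (median -0.17). With library totals only, 3 were lower and 7 higher (median 0.06), and 5 were lower without Apc replicate 3 and 6 without the filter on low counts. Over all genes, library totals gave 6817 of 17394 higher and 2393 lower. The other 2 fits gave 3713 of 17617 and 3790 of 34982 lower. The calls with the smallest p were, lower, Mdh2 (-0.85), Ogdh (-0.62) and Sucla2 (-0.62) and, higher, Idh2 (0.67), Idh3a (0.47) and Pdhx (0.43). Of 10 regulators of mitochondrial biogenesis 4 rose, namely Pprc1 (1.54), Esrrg (1.83), Nrf1 (0.47) and Yy1 (0.27), and 2 fell, Esrra (-0.59) and Ppara (-0.58). Leaving out WT replicate 2 or Apc replicate 1 ended the call of Ppara (adjusted p up to 0.0787). Of 13 membrane and dynamics genes 2 rose (Phb at 0.72 and Phb2 at 0.54) and 2 fell (Mfn2 at -0.61 and Vdac2 at -0.44, the latter lost without WT replicate 3 or 4 or Apc replicate 3, with adjusted p up to 0.06). With library totals only, 7 of these 13 were higher and 1 lower.

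**Figure D5:**
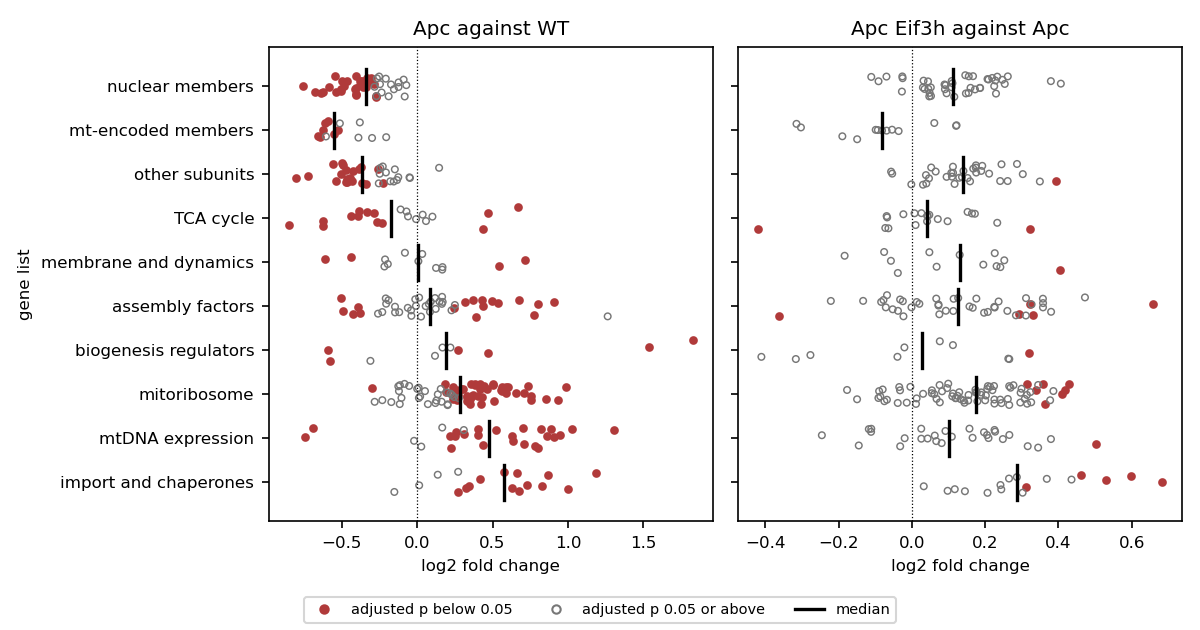
Log2 fold change of each gene (points, red where the adjusted p is below 0.05) in the nuclear and mt-encoded members and 8 lists of related mitochondrial genes (rows), with the list median as a bar, for Apc against WT (left) and Apc Eif3h against Apc (right). On the left the medians run from -0.55 for mt-encoded members to 0.58 for import and chaperones, and on the right from -0.08 to 0.29.

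Between Apc Eif3h and Apc, calls in these lists were few and mostly upward. Over all genes tested 4.27% were higher and 2.78% lower, and 6.45% were higher by DESeq2. The share higher was 29.4% for import and chaperone genes, 9.21% for mitoribosomal genes and 8.89% for assembly factors. Import and chaperone genes had 5 of 17 higher (median 0.29): Timm10 and Timm9, small carriers of the intermembrane space (0.68 and 0.53), Hspa9, the matrix Hsp70, from 551 to 834 CPM (0.60, SE 0.11, adjusted p = 0.0107), Timm13 and Tomm70a. Mitoribosomal genes had 7 of 76 higher and 0 lower (median 0.18), with Mrps7 at 0.42 (adjusted p = 0.0132). The mitoribosomal count rested on single libraries: it was 0 without Apc replicate 3 and 1 without Apc Eif3h replicate 1 or replicate 2. It was 2 without Apc replicate 2 and 3 without replicate 4 of either group. With library totals only it was 3, without the filter on low counts 2, and DESeq2 called 13. Calls over all genes fell in these edgeR fits too, from 743 of 17394 higher to 242 of 17617 without Apc replicate 3. They numbered 418 of 17774 without Apc Eif3h replicate 1, 422 of 17639 without Apc replicate 2, 485 of 17394 with library totals and 511 of 34982 without the filter. The import count was 2 without Apc replicate 3, 3 without Apc replicate 2 and 4 to 6 in the other fits that left out 1 library. Of the assembly factors 4 were higher, Ndufaf4 (0.66, adjusted p = 0.0063), Coa5, Surf1 and Cox10, and 1 lower, Atpaf1 (-0.36, adjusted p = 0.0436). The count of 4 went to 1 without Apc replicate 2 or 3, to 2 without Apc replicate 4 or Apc Eif3h replicate 1 or 4 or without the filter, and to 8 by DESeq2. Phb2 (0.40) and Cox7a2l (0.39), which takes part in supercomplexes, were higher, Idh2 was lower (-0.42, adjusted p = 0.0116), and Nrf1 (0.32, adjusted p = 0.0323), Fastkd1 (0.50) and Mpc2 (0.32) were at higher levels. Ndufaf4, Timm10, Hspa9 and Idh2 kept their calls in all 8 fits that left out 1 library. Those of Timm9, Mrps7 and Phb2 were lost without Apc replicate 3 (0.0553, 0.0553 and 0.0555), that of Fastkd1 in 4 fits (adjusted p up to 0.0717), and those of Nrf1, Mpc2 and Atpaf1 in 7 of 8, with adjusted p up to 0.0883, 0.15 and 0.105. The differences of Cox7a2l and Coa5 lost their calls in 3 of 8 (up to 0.083 and 0.0721) and Surf1 in 6 (up to 0.0924).

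Against WT, with the same WT libraries as above, Apc Eif3h had 58 of 76 mitoribosomal genes higher and 2 lower, 22 of 28 genes of mitochondrial DNA expression higher and 2 lower, and 15 of 17 import and chaperone genes higher and 0 lower. Over all genes tested 29.8% were higher and 28.1% lower. Tomm40 rose to 121 CPM (1.30) and Hspd1 to 468 CPM (1.56). Of the 34 other subunits 10 (29.4%) were lower and 0 higher, and the share lower was near that of all genes. The count of 10 leaned on single libraries: it was 20 without Apc Eif3h replicate 3 and 17 without WT replicate 2. It was 5 without WT replicate 3 or 4 or Apc Eif3h replicate 1 or 4, and 6 without the filter. With library totals only, 2 of the 34 were lower and 5 higher. Over all genes, 4823 of 17691 were lower without Apc Eif3h replicate 3, 4497 of 17725 without WT replicate 2 and 4150 of 17661 without Apc Eif3h replicate 4. Without the filter 4558 of 34982 were lower, and library totals gave 3175 of 17394 lower and 6605 higher.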

How the data were processed

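Small intestinal RNA (RNeasy Micro columns) was made into TruSeq RNA libraries and read in pairs of 36 cycles on a NextSeq 500, per the labels' protocols. The deposited values are raw read counts per gene. Per the submitters' processing notes, the tools and build included featureCounts 1.6.4, HISAT2 2.1.0, Trim Galore 0.6.4, FastQC 0.11.8 and GRCm38. Settings for strand and multi-mapped reads: not given in the sources used here. Of 55421 Ensembl IDs, 55240 were matched to GENCODE M21, and the other 181 held 0.00226% of counts. Where a listed symbol had more than 1 ID (1 symbol), the ID with the most counts was used. Counts were tested with edgeR 4.0.16 (R 4.3.3; filterByExpr by group, TMM scaling, quasi-likelihood test, 1 mean per group over all 12 libraries) with Benjamini-Hochberg adjustment over 17394 genes, and a gene was called at an adjusted p below 0.05. The SE of a log2 fold change was derived from its F statistic. A prior count of 2 entered the log2 CPM of the per-library scores. The fitting script was tested on simulated counts. Alternatives were other scaling factors, no filter, 2 groups per fit, sex as a covariate, a replicate block, DESeq2 1.42.0 and leaving out each library. Replicate pairs differed beyond sampling noise (chi-square per gene 16.5 to 47.8), so every library counted as 1 replicate.

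The members, gene lists and tests were chosen with earlier results of these data known. Values in every library are given for the 3 called members with the smallest p per class and comparison (1 where none was called) and for the member with the largest change per complex. Of each other list up to 3 called genes with the smallest p in each direction are named. Cycs, Cyc1, Ndufv2, mt-Co1, the nuclear copies and the further members and list genes given by value were named after their values were seen.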

Additional observations from a re-analysis of the deposited data

Results flagged for a closer look

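In 3 of 180 sets of 4 libraries 1 library stood far from the other 3 by Dixon's gap criterion. A set was 1 member, or 1 of the 2 shares of counts or the score difference, in 1 group. Chance gives about 1 in 20 such sets. Ndufa1 stood at 94.4 CPM in Apc replicate 2 against 74.4 to 77.6 in the other Apc libraries. Cox7b stood at 318 CPM in Apc replicate 2 against 282 to 288. Uqcrc1 stood at 579 CPM in Apc replicate 1 against 510.3 to 519.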

How the results depend on the processing

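With library totals as the only scaling, nuclear members lower in Apc than in WT numbered 11, and in Apc Eif3h against WT 6 were lower and 2 higher (Cyc1 and Ndufa10). Over all 17394 genes, 2393 were lower in Apc than in WT, and in Apc Eif3h against WT 3175 were lower and 6605 higher. Under that scaling 11 members not called in Apc against WT changed sign: Ndufa10 (0.0611), Ndufs1 (0.11), Ndufs3 (0.11), Ndufs4 (0.0014), Ndufs8 (0.16), Ndufc2 (0.15), Uqcrc2 (0.042), Cyc1 (0.0258), Cycs (0.16), Atp5b (0.0785) and mt-Nd5 (0.0263). DESeq2 called 11 mt-encoded members lower in Apc and 3 nuclear members higher in Apc Eif3h than in Apc. It also called Ndufa4, Ndufb5, Ndufs4, Uqcrc2, Cyc1 and Atp5a1 lower in Apc than in WT (adjusted p 0.00916 to 0.0409). By that tool 25.1% of all genes were lower in Apc than in WT. Without the filter on low counts, edgeR called mt-Co1, mt-Cytb and mt-Nd1 lower in Apc than in WT. The cause of these differences was not tested.

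Leaving out 1 library, nuclear members higher in Apc Eif3h than in Apc numbered 0 to 1 (1 without Apc Eif3h replicate 1). Nuclear members lower in Apc Eif3h than in WT numbered 9 to 22 (22 without Apc Eif3h replicate 3, where 4823 of 17691 genes were lower). Against WT, 6 to 7 mt-encoded members were lower in Apc, and 8 to 10 were lower with Eif3h floxed too. In Apc Eif3h against WT the sign was followed for only 3 uncalled nuclear members, all near 0, and all 3 changed sign. They were Cyc1 (range -0.0217 to 0.064, below 0 without WT replicate 2 or Apc Eif3h replicate 3), Atp5b (-0.0019 to 0.1191, below 0 without Apc Eif3h replicate 3) and Ndufa10 (-0.0345 to 0.0855, below 0 without WT replicate 2 or Apc Eif3h replicate 2 or 3). The signs of the other uncalled nuclear members were not examined. The calls of Ndufa8, Ndufa9, Ndufs7 and Cox5a in Apc against WT were lost in 4, 2, 4 and 6 of 8 fits, with adjusted p up to 0.0768, 0.054, 0.0614 and 0.0888. As a share of counts without the mitochondrial chromosome, nuclear members took 1.66% in WT and 1.53% in Apc.

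Replicate numbers did not pair the libraries (correlation of same-numbered deviations -0.142 to 0.236). With the replicate number as a block, 26 nuclear and 7 mt-encoded members were lower in Apc than in WT, 12 and 10 in Apc Eif3h than in WT, and 0 were called between Apc Eif3h and Apc. Over the 120 calls of single genes and contrasts examined, that block ended 10 and the sex covariate 5, while under each all 35 uncalled ones stayed uncalled with the same sign.

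All 57 members passed the filter on low counts, so none was lost to depth. Genotype, day and cell makeup move together against WT and cannot be told apart, and reads shared with nuclear copies leave the levels of 5 mt-encoded members uncertain, and those of mt-Nd4 and mt-Co1 in part.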
